A study of Homo sapiens with 8 samples.

Results

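The 4 wild-type libraries of this series, out of 8 in all, show how human hTERT-RPE1 cells responded at the RNA level to 8 h in medium lacking serine and glycine. They were picked by their genotype label, and they form 2 groups of 2: wild type in complete medium, and wild type after 8 h in serine/glycine-free medium. hTERT-RPE1 is an established line, derived from retinal pigment epithelium and immortalised with telomerase, the transgene that every group shares. Each group has 1 library from each of 2 experiments (batch 1 and batch 2) done 1 week apart, so the comparison consists of 2 pairs of libraries. The other 4 libraries come from the same line labelled ATF3 knockout, in the same media and batches. They enter here through the estimate of spread, the library totals, the ATF3 levels, 1 closing comparison and the genes flagged at the end. The labels give a saline wash before the serine/glycine-free medium, and whether the complete-medium cultures were washed as well is not stated. The complete-medium libraries are labelled as the starting time point, and none is labelled as kept in complete medium for the same 8 h. Deprivation, medium change and 8 h of further culture therefore cannot be told apart.

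Serine and glycine feed protein synthesis, glutathione, phospholipids and, through folate, nucleotides. When an amino acid runs short, uncharged tRNA activates the kinase GCN2, which phosphorylates the translation factor eIF2, slows protein synthesis and favours translation of the transcription factor ATF4. ATF4, with partners of the C/EBP family, then switches on genes for amino acid synthesis, uptake and tRNA charging.

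Levels are given in FPKM (fragments scaled for transcript length and for the number mapped), always in the order batch 1, batch 2. Differences are of log2(FPKM + 1), serine/glycine-free minus complete medium within a batch. The log2 fold change is the mean of the 2 differences (n = 2 pairs), with limma's moderated standard error after ±. That error draws also on the pairs labelled knockout and on the spread of other genes, so it is not the spread of the 2 differences alone. A gene was tested if it reached 1 FPKM in at least 2 of the 4 wild-type libraries, which left 16064 of 57884 listed genes, 12390 of them protein-coding. Where the libraries of the media are said not to overlap, this describes 2 against 2 libraries. The share of all genes that do so was not counted, so it is no measure of support. Absolute depth is unknown, and the steps between low values place the 8 libraries within a relative depth of 1.0 to 1.27. The FPKM sums ran from 2429662 to 3148153, of which protein-coding genes held 11.3% to 15.5% and small RNA genes 60.5% to 65.6%.

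The 2 batches of wild-type cells differed before any treatment, which bears on every value below. In all, 83 protein-coding genes reached 10 FPKM in both batch 1 wild-type libraries yet stayed under 0.5 FPKM in both from batch 2, and 59 showed the reverse. In complete medium SPARC, a matrix protein of mesenchymal cells, stood at 343 FPKM in batch 1 and 0.62 in batch 2, while KRT19, an epithelial keratin, stood at 0.281 and 321. Several other markers of these kinds went the same way in complete medium. THY1 and COL3A1, both mesenchymal, stood at 66.0 and 17.4 FPKM in batch 1 and at 0 in batch 2. EPCAM and CLDN4, both epithelial, stood at 1.93 and 15.3 FPKM in batch 1 and at 10.7 and 135 in batch 2. Some markers went the other way or hardly differed. The epithelial keratins KRT8 and KRT18 stood at 249 and 90.9 FPKM in batch 1 and at 55.0 and 47.2 in batch 2. The mesenchymal markers FN1 and CDH2 stood at 34.5 and 28.8 FPKM in batch 1 and at 44.5 and 28.7 in batch 2. Defining markers of differentiated pigment epithelium were at or near 0 in all 4 libraries: RLBP1 and OTX2 were listed at 0, RPE65 reached at most 0.695 FPKM, and the 11 markers summed to between 5.31 and 17.5 FPKM, with 1 to 4 of them at 1 FPKM or more. The labels name 1 line for both batches, and whether both experiments used the same cells was not tested. Mesenchymal markers summed to 1316 and 1342 FPKM in batch 1 and to 674 and 744 FPKM in batch 2, and other epithelial markers to 359 and 317 FPKM in batch 1 and to 582 and 369 FPKM in batch 2 (complete, then serine/glycine-free). KRT19 and CLDN4 make up most of the batch 2 epithelial difference, at 321 and 135 FPKM and then 216 and 55.5 FPKM. In bulk RNA, fewer cells of a type and less RNA per cell cannot be told apart, and the part of these markers in the results below was not tested.

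Limma, with p-values adjusted over all genes tested, called 15 genes higher (0.0934% of those tested) and 5 lower (0.0311%). Of these, 11 were not annotated as protein-coding. The protein-coding genes among them were TRIB3, MT1X, PCK2, SLC7A11, CEBPB, SARS, CEBPG and PSPH, which rose, and HSPA8, which fell. At an unadjusted p under 0.05 limma listed 1726 genes. When limma was run on protein-coding genes only, 55 rose (0.444%) and 6 fell (0.0484%), and these include the 9 genes just named. A plain size rule, a log2 difference of at least 1 in both batches, was met by 66 protein-coding genes that were at least doubled (0.533%) and by 13 that were at least halved (0.105%). Of the 55 genes that rose in the protein-coding run, 39 met the size rule, as did 4 of the 6 that fell.

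Some genes moved far in opposite directions: 5 protein-coding genes were doubled in batch 1 and halved in batch 2, and 8 the other way round. These stand beside the 66 doubled in both batches and the 13 halved in both. Within a single batch many more genes passed 1: 228 were doubled and 199 halved in batch 1, against 281 and 112 in batch 2. Of all protein-coding genes tested, 32.2% were higher in both batches and 27.2% lower in both, with a median log2 fold change of 0.02; these shares are the background for the gene lists that follow. The differences of the 2 batches correlated at r = 0.30 over the 12390 protein-coding genes and at r = 0.51 over the 3831 with a mean of at least 20 FPKM, a description across genes, which are not independent replicates.

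**Figure D1:**
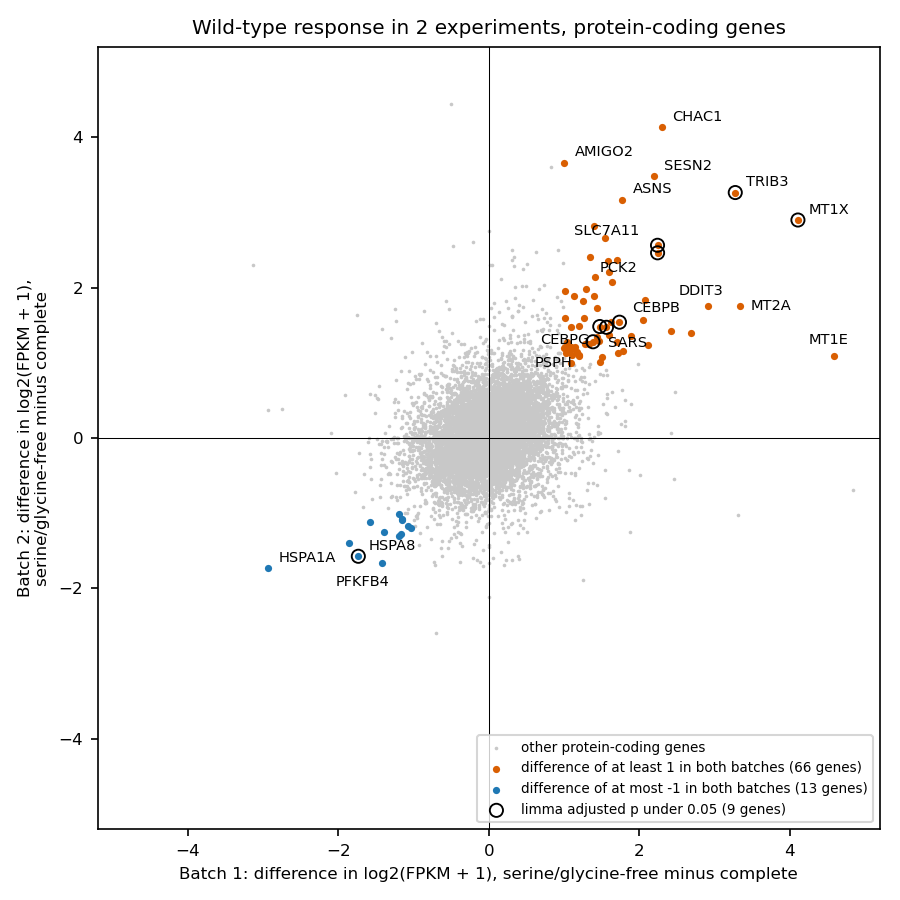
Difference in log2(FPKM + 1), serine/glycine-free minus complete medium, in batch 1 (x axis) and batch 2 (y axis) for the 12390 protein-coding genes tested in wild-type cells; each point is 1 gene. Orange marks the 66 genes at least doubled in both batches, blue the 13 at least halved, and circles the 9 genes called by limma over all genes tested, 8 of them at the upper right and HSPA8 at the lower left.

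Transcription factors of the ATF and C/EBP families and their feedback genes were higher, by unequal amounts. All 15 genes of that list were higher in both batches, 10 were at least doubled in both and the median log2 fold change was 1.51. ATF5 had the lowest value, 0.15, and hardly differed (0.27 and 0.03). Limma called 3 of them over all genes and 9 in the protein-coding run, which leaves out TXNIP, a member with no matched gene type. TRIB3, a pseudokinase that ATF4 induces and that feeds back on it (ENSG00000101255, hg19 chr20:361261-378203), stood at 7.66 and 24.7 FPKM in complete medium and at 83.0 and 246 FPKM without serine and glycine. It rose about equally in both experiments, by 3.28 and 3.26 on the log2 scale, although its starting level differed between them (log2 fold change 3.27 ± 0.26, limma adjusted p = 0.0442). Both starved libraries lay above both controls.

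CEBPB (ENSG00000172216, hg19 chr20:48807376-48809212), a C/EBP factor of stress and inflammation, went up from 19.0 and 29.1 FPKM to 65.6 and 86.5 FPKM (log2 fold change 1.64 ± 0.13, limma adjusted p = 0.0436). CEBPG (ENSG00000153879, hg19 chr19:33864236-33873592), the partner with which ATF4 binds amino acid response elements, went from 13.8 and 9.53 to 42.8 and 28.2 FPKM (log2 fold change 1.52 ± 0.13, limma adjusted p = 0.0494). For neither gene did the groups overlap. ATF4 itself, whose induction is mainly translational, had 171 and 56.1 FPKM of mRNA in complete medium and 300.4 and 171 FPKM without serine and glycine, and it rose in the protein-coding run of limma (log2 fold change 1.20 ± 0.20, adjusted p = 0.043). The starved library of batch 2 was level with the batch 1 control.

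After TRIB3, the largest log2 fold changes on this list belonged to CHAC1, an enzyme that degrades glutathione, and SESN2, a leucine-binding inhibitor of mTORC1 signalling. CHAC1 measured 4.05 and 3.38 FPKM in complete medium and 23.9 and 76.0 FPKM without serine and glycine, differences of 2.30 and 4.14, so the larger difference was in batch 2. SESN2 measured 5.57 and 1.82 FPKM and then 29.1 and 30.4 FPKM, again with the larger difference in batch 2 (2.20 and 3.48). DDIT3, which encodes the stress factor CHOP, showed the opposite order, 7.07 and 14.99 FPKM followed by 59.6 and 53.1 FPKM (differences 2.91 and 1.76). These 3 genes rose in the protein-coding run of limma, with adjusted p of 0.0272, 0.0208 and 0.0197, and the run over all genes gave 0.168, 0.122 and 0.122. PPP1R15A, the phosphatase subunit that reverses eIF2 phosphorylation, and NUPR1, a small stress-induced chromatin protein, also rose there (log2 fold changes 1.39 ± 0.14 and 1.87 ± 0.27, limma adjusted p = 0.0197 and 0.0347).

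ATF3 (ENSG00000162772, hg19 chr1:212738676-212794119, a locus shared with 1 other listed gene), the stress-induced member of the family that the genotype labels name, did not pass the test. It stood at 3.47 and 3.65 FPKM in complete medium and at 6.46 and 18.0 FPKM without serine and glycine, a difference of 0.74 in batch 1 and 2.03 in batch 2 (log2 fold change 1.39 ± 0.41, limma adjusted p = 0.395). Both starved libraries were above both controls, by little in batch 1. The libraries labelled ATF3 knockout also held its mRNA, at 3.38 and 20.8 FPKM in complete medium. Without serine and glycine they held 4.45 and 57.3 FPKM. Set against wild type in the same medium, both batch 1 values were lower and both batch 2 values were higher. The batch 2 gaps were the wider ones, 20.8 against 3.65 FPKM and 57.3 against 18.0 FPKM. A loss of ATF3 mRNA under the knockout label was therefore not seen in both batches, and whether the gene was disrupted was not tested.

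**Figure D2:**
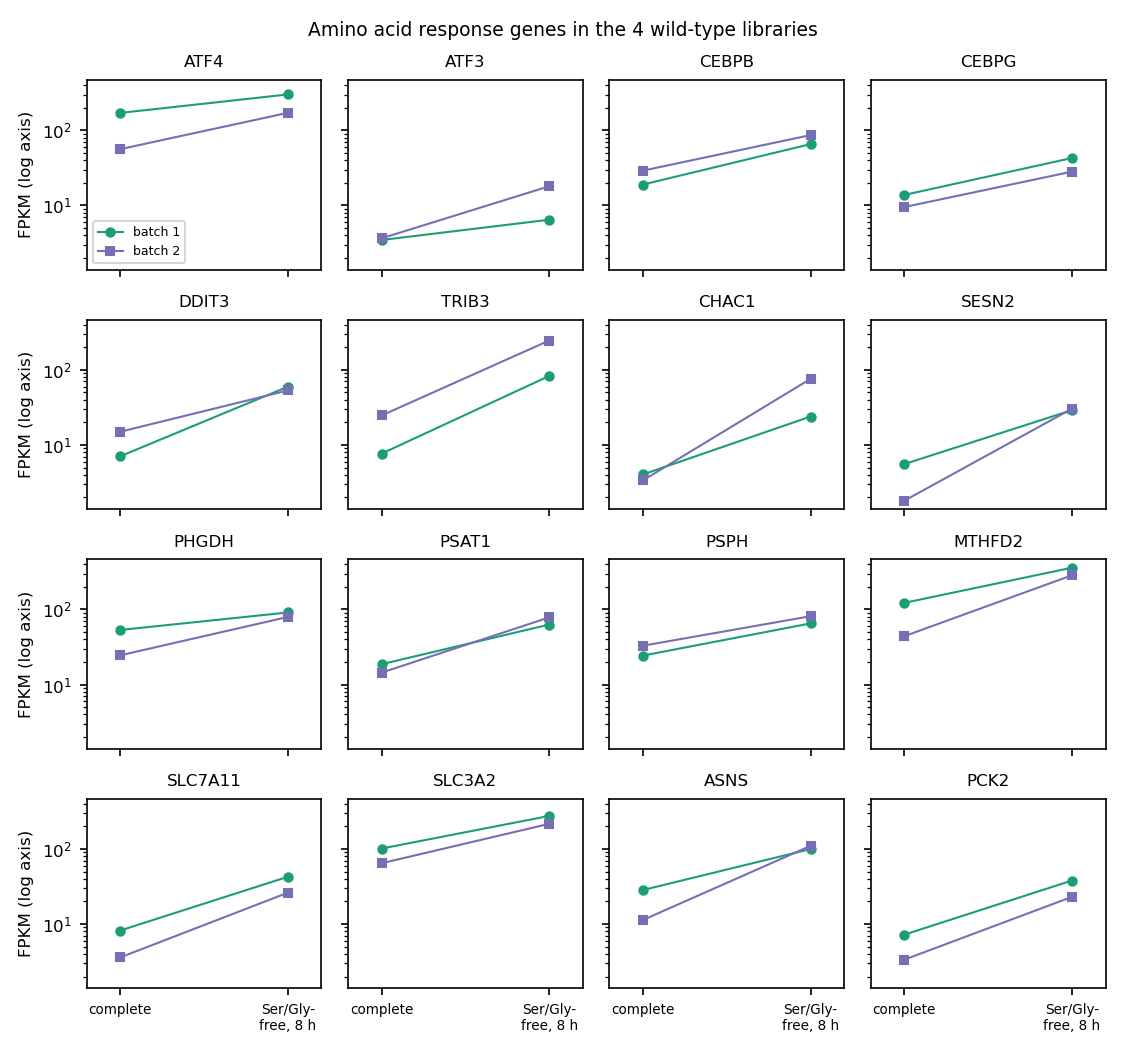
FPKM (log axis) of 16 amino acid response genes in complete medium and after 8 h in serine/glycine-free medium; green circles are the 2 wild-type libraries of batch 1 and purple squares those of batch 2, with a line joining each pair. Every line slopes upward, and the slopes of TRIB3, CEBPB, CEBPG, PSPH, SLC7A11 and PCK2 are alike in both batches while those of ATF3, CHAC1 and ASNS are steeper in batch 2.

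Promoter sequences bear on this group because ATF4 and C/EBP factors bind a known composite element. The letters TGATGNAA, searched on both strands in RefSeq promoters (GRCh38.p14, 250 bases before to 50 after the start), occurred in 12 of the 53 doubled genes that have a promoter in the table, or 22.6%. They occurred in 2.80% of the 10056 protein-coding genes tested that have one, in 3.62% of all 35116 promoters, and in 0 of the 11 halved genes with one. A match is a description of the letters only, not a binding site. In 8 of the 12 the match lies before the start, and those stretches follow, 5′ to 3′ on the gene's strand, with the match in capitals (TTNCATCA where it reads on the opposite strand).
CHAC1, chr15:40953238-40953293, plus strand: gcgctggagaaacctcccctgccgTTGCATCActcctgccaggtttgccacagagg
ASNS, chr7:97872445-97872500, minus strand: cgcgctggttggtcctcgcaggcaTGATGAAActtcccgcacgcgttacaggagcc
KRT34, chr17:41382499-41382554, minus strand: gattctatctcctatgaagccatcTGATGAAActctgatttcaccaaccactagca
CEBPG, chr19:33374047-33374102, plus strand: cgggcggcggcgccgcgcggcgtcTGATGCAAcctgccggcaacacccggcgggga
SLC1A5, chr19:46784880-46784935, minus strand: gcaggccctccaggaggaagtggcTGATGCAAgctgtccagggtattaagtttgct
HERPUD1, chr16:56931942-56931997, plus strand: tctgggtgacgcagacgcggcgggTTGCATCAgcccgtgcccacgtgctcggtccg
GARS, chr7:30594821-30594876, plus strand: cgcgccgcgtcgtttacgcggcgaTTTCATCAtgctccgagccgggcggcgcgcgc
FHL2, chr2:105399781-105399836, minus strand: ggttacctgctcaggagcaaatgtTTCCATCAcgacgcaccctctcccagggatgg
The genes span several roles: CHAC1 and CEBPG belong to the factors and feedback genes above, ASNS makes asparagine, SLC1A5 imports neutral amino acids, GARS charges glycyl-tRNA, HERPUD1 acts in degradation at the endoplasmic reticulum, KRT34 is a hair keratin and FHL2 a LIM-domain cofactor. The match lay 68 bases before the start in ASNS, 42 in CEBPG and 33 in GARS, against 209 in CHAC1 and 224 in KRT34.

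The serine synthesis pathway makes serine from the glycolytic intermediate 3-phosphoglycerate in consecutive steps by PHGDH, PSAT1 and PSPH. All 3 genes were higher in both batches, and 2 were at least doubled in both. PSPH, the phosphatase of the last step (ENSG00000146733, hg19 chr7:56078744-56119297), rose from 24.3 and 32.8 FPKM to 65.1 and 81.2 FPKM (log2 fold change 1.33 ± 0.11, limma adjusted p = 0.0494). PSAT1, the aminotransferase of the middle step (ENSG00000135069, hg19 chr9:80912059-80945009), had 18.6 and 14.4 FPKM in complete medium and 62.9 and 78.3 FPKM without serine and glycine, and it rose in the protein-coding run (log2 fold change 2.03 ± 0.19, limma adjusted p = 0.00969, against 0.0655 over all genes). PHGDH, which catalyses the committed step (ENSG00000092621, hg19 chr1:120202421-120286838), passed in neither run: 53.2 and 24.5 FPKM were followed by 90.9 and 79.3 FPKM, a difference of 0.76 in batch 1 and 1.66 in batch 2 (log2 fold change 1.21 ± 0.23, limma adjusted p = 0.258, and 0.0721 in the protein-coding run). For each of the 3 genes both starved libraries lay above both controls, a description given without the share over all genes.

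Among the 17 tested genes of folate metabolism and glycine cleavage, 9 were higher in both batches and 3 lower in both, with a median log2 fold change of 0.10. The mitochondrial arm accounts for the largest values. MTHFD2, its dehydrogenase, had 122 and 44.0 FPKM in complete medium and 359 and 285 FPKM without serine and glycine, and MTHFD1L, its formate-producing ligase, had 29.7 and 7.86 and then 57.5 and 24.2 FPKM. Both rose in the protein-coding run of limma (log2 fold changes 2.11 ± 0.29 and 1.22 ± 0.18, adjusted p = 0.0243 and 0.0409). SHMT2, the mitochondrial enzyme that splits serine into glycine and a one-carbon unit, did not pass, with differences of 0.55 and 1.27. The cytosolic counterpart SHMT1 had negative differences, −0.66 and −0.50, and cytosolic MTHFD1 had 0.04 and −0.48; neither passed.

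Amino acid transporters held a subset with large differences. Of 22 tested, 13 were higher and 3 lower in both batches, 5 were at least doubled in both, and the median log2 fold change was 0.68. SLC7A11, the cystine/glutamate antiporter (ENSG00000151012, hg19 chr4:138948576-139163503), stood at 8.20 and 3.59 FPKM in complete medium and 42.5 and 26.1 FPKM without serine and glycine. It rose by 2.24 and 2.56 in the 2 batches with no overlap between media (log2 fold change 2.40 ± 0.20, limma adjusted p = 0.0442). SLC3A2, the heavy chain with which SLC7A11 and SLC7A5 form their transporters, was the most abundant of the doubled ones, at 101 and 64.4 and then 275 and 216 FPKM.

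SLC6A9, the glycine transporter GlyT1, was low in both media, at 1.82 and 2.25 FPKM and then 7.71 and 8.52 FPKM, with nearly the same difference in each batch. SLC1A5, a sodium-dependent carrier of neutral amino acids, went from 67.1 and 27.1 to 162 and 83.7 FPKM. SLC3A2, SLC6A9, SLC1A5 and SLC38A1 rose in the protein-coding run, with limma adjusted p of 0.00969, 0.0347, 0.0162 and 0.0261. SLC1A4, a serine and alanine carrier, was doubled in both batches (differences 1.30 and 1.98) without passing (limma adjusted p = 0.0591 in that run). The serine carrier of the mitochondrial inner membrane, SFXN1, had differences of −0.46 and −0.41, below 0 in both batches and not past the test.

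Cytosolic and mitochondrial aminoacyl-tRNA synthetases, the enzymes that load tRNAs, differed in what they showed. Of the 20 cytosolic genes, 17 were higher in both batches and 2 lower in both, with a median of 0.69, and 8 rose in the protein-coding run. Of the 17 mitochondrial genes, 7 were higher and 5 lower in both batches, with a median of 0.06, and 0 passed in either run; the difference between the lists was not tested. SARS (ENSG00000031698, hg19 chr1:109756540-109780791), the seryl-tRNA synthetase, stood at 78.8 and 55.6 FPKM and then at 221 and 157 FPKM, the same difference of 1.48 in both batches (log2 fold change 1.48 ± 0.12, limma adjusted p = 0.0442).

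The glycyl-tRNA synthetase GARS went from 71.8 and 35.8 to 172 and 129.6 FPKM, the tryptophanyl enzyme WARS from 27.2 and 30.6 to 61.5 and 72.0 FPKM and the cysteinyl enzyme CARS from 25.6 and 14.9 to 52.0 and 52.6 FPKM. They rose in the protein-coding run together with AARS, NARS, TARS and YARS, with limma adjusted p of 0.0212, 0.0159 and 0.0409 for the first 3. The synthetases of the missing amino acids were thus among the larger values but not alone. At the other end, FARSA had differences of −0.46 and −0.06 and RARS of −0.02 and −0.17. The mitochondrial seryl enzyme SARS2 headed its list with 0.62 and 0.86 and did not pass. The letters TGATGNAA were found in the promoters of 7 of the 16 cytosolic genes that have one in the table (43.8%) and of 1 of the 14 mitochondrial genes (7.14%). XPOT, the exporter of tRNA from the nucleus, lies outside these lists and was doubled in both batches, from 37.0 and 36.2 to 86.1 and 78.2 FPKM (log2 fold change 1.14 ± 0.12, limma adjusted p = 0.0174 in the protein-coding run).

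**Figure D3:**
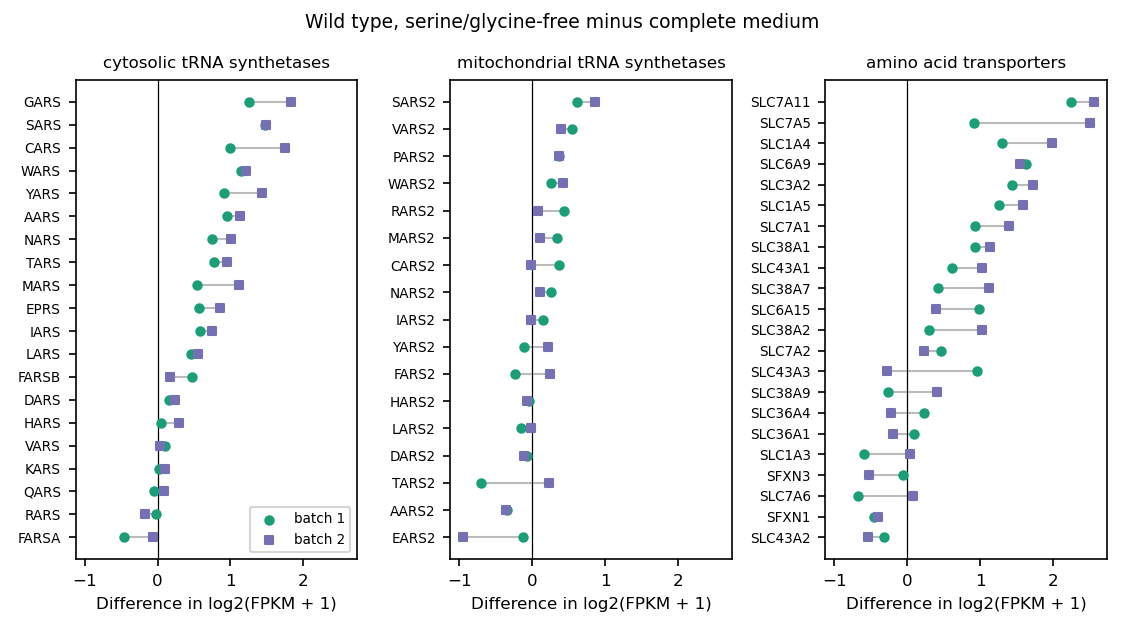
Difference in log2(FPKM + 1), serine/glycine-free minus complete medium, for each tested member of 3 lists: 20 cytosolic tRNA synthetases, 17 mitochondrial tRNA synthetases and 22 amino acid transporters. Green circles are batch 1 and purple squares batch 2, joined by a grey line; most cytosolic synthetases lie right of 0 in both batches, while the mitochondrial ones lie on both sides.

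In the synthesis of asparagine, proline, glutamine and arginine and the carbon metabolism linked to it, 12 of 18 tested genes were higher in both batches, 4 were lower in both and 3 were doubled in both (median 0.38). PCK2, the mitochondrial phosphoenolpyruvate carboxykinase (ENSG00000100889, hg19 chr14:24549316-24602058, a locus shared by 5 listed genes), rose from 7.23 and 3.36 FPKM to 38.0 and 23.0 FPKM (log2 fold change 2.35 ± 0.15, limma adjusted p = 0.0211). Both starved libraries lay above both controls. ASNS, asparagine synthetase, had 28.4 and 11.3 and then 99.6 and 110.0 FPKM, and rose in the protein-coding run (log2 fold change 2.47 ± 0.32, limma adjusted p = 0.0212). GPT2, an alanine aminotransferase, was doubled in both batches with differences of 1.05 and 1.16 and did not pass. GLUL, which makes glutamine, and ALDH18A1, which starts proline synthesis, stayed near their starting values, with log2 fold changes of 0.02 and −0.06.

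In the methionine cycle, transsulfuration and glutathione list, 12 of 17 tested genes were higher in both batches and 0 lower in both (median 0.21), and 0 passed in either run. Both steps of transsulfuration stood at its upper end: CTH, which releases cysteine from cystathionine, went from 3.69 and 10.6 to 19.4 and 26.3 FPKM, and CBS, which joins serine to homocysteine, from 33.9 and 2.05 to 60.3 and 7.61 FPKM. Their limma adjusted p in the protein-coding run were 0.0601 and 0.0853. CBS was lower in both libraries of batch 2 than in either of batch 1.

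Translation control and the secretory pathway gave a mixed picture. Among 18 tested genes for eIF2 kinases and translation factors, 5 were higher and 7 lower in both batches (median −0.02), close to the background shares. EIF4EBP1, the repressor of cap-dependent translation, rose in the protein-coding run, from 69.8 and 79.7 to 149.8 and 161 FPKM (log2 fold change 1.05 ± 0.14, limma adjusted p = 0.0298). Of 19 endoplasmic reticulum chaperones and stress genes, 5 were higher and 10 lower in both batches (median −0.10).

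The genes that rose there were XBP1, the transcription factor of the unfolded protein response, from 50.7 and 31.6 to 109.8 and 89.3 FPKM, and HERPUD1, from 21.4 and 19.0 to 53.6 and 46.7 FPKM (limma adjusted p = 0.0162 and 0.0197 in the protein-coding run). The main lumenal chaperone HSPA5 stood at 19.1 and 17.7 FPKM in complete medium and 19.2 and 18.6 FPKM without serine and glycine. CALR, a calcium-binding chaperone, had differences of −0.28 and −0.29 and SDF2L1 of −0.59 and −0.56, below 0 in both batches and not past the test.

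Heat shock chaperones were lower almost without exception. Their list is named for the cytosol but also holds HSPD1 and HSPE1, chaperonins of mitochondria. Of 14 tested, 13 were lower in both batches and 0 higher in both (median −0.69), and CRYAB was the member whose batches differed in sign. HSPA8, the constitutive Hsp70 (ENSG00000109971, hg19 chr11:122928197-122933938, a locus shared by 4 listed genes), stood at 1080 and 938 FPKM in complete medium and at 324 and 315 FPKM without serine and glycine. It fell by 1.74 and 1.57 on the log2 scale in the 2 batches (log2 fold change −1.65 ± 0.11, limma adjusted p = 0.0203). HSPA1A, the inducible Hsp70, had 41.1 and 19.97 FPKM and then 4.51 and 5.32 FPKM, and its near-identical copy HSPA1B had 16.6 and 10.3 and then 4.49 and 4.99 FPKM; reads of the pair may have been split between them.

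HSPA1A and HSP90AA1, the inducible Hsp90 (79.3 and 140.4 FPKM, then 48.1 and 77.0 FPKM), fell in the protein-coding run (limma adjusted p = 0.0409 and 0.0376). The Hsp70 co-chaperones DNAJA1, DNAJB1 and BAG3 and the nucleotide exchange factor HSPH1 had log2 fold changes of −0.88, −0.60, −0.85 and −1.03, none past the test. The cold-inducible RNA-binding proteins, picked after their values were seen, were higher: CIRBP rose in the protein-coding run, from 41.5 and 61.0 to 99.4 and 118 FPKM (limma adjusted p = 0.0206), and RBM3 went from 139.5 and 170.2 to 198 and 249 FPKM without passing (limma adjusted p = 0.0853). HSPA9, the mitochondrial Hsp70 and also outside the list, rose by 0.63 and 0.74 (limma adjusted p = 0.0441 in the same run). HSPD1 and HSPE1, the mitochondrial members of the list, had log2 fold changes of −0.24 and −0.41 and did not pass.

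Metallothioneins are small cysteine-rich proteins that bind zinc and copper, and their list also holds the zinc exporter SLC30A1. This list had the highest median log2 fold change of the 27 lists, 2.26. Of its 6 tested genes, 4 were doubled in both batches: MT1X, MT2A, MT1E and SLC30A1. MT1X (ENSG00000187193, hg19 chr16:56716336-56721964, a locus shared by 3 listed genes) stood at 12.6 and 42.5 FPKM in complete medium and 233 and 324 FPKM without serine and glycine (log2 fold change 3.50 ± 0.29, limma adjusted p = 0.0442). MT2A, the most abundant of them in all but the starved batch 1 library, where MT1E was higher, went from 104 and 337 to 1058 and 1143 FPKM and rose in the protein-coding run (limma adjusted p = 0.0272). The zinc exporter SLC30A1 went from 6.18 and 1.98 to 18.1 and 12.1 FPKM without passing.

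The other copies depended on the batch. MT1E stood at 70.0 and 0.949 FPKM in complete medium and at 1706 and 3.13 FPKM without serine and glycine, so nearly all of its signal is in batch 1. In batch 2, MT1F stood at 8.51 and then 63.3 FPKM and MT1M at 1.78 and then 59.4 FPKM, while batch 1 listed both at no more than 0.42 FPKM. None of these 3 passed the test, and reads may have been split between the near-identical metallothionein genes.

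Sterol synthesis genes were lower, more so in batch 1. Of 23 tested, 17 were lower in both batches and 1 higher in both (median −0.56), and the list's median difference was −0.86 in batch 1 and −0.25 in batch 2. MVD, the mevalonate decarboxylase, fell in the protein-coding run, from 50.1 and 23.5 to 25.3 and 10.8 FPKM (log2 fold change −1.01 ± 0.13, limma adjusted p = 0.0382). HMGCS1, which makes the HMG-CoA that feeds the pathway, had differences of −1.43 and −0.36 and did not pass. IDI1, the isopentenyl diphosphate isomerase, went from 17.5 and 15.8 to 7.67 and 9.04 FPKM without passing, and SREBF2, the master regulator, had differences of opposite sign, −0.71 and 0.49. The sterol element TCACNCCAC, searched as above, was found in 1 of the 18 promoters of this list in the table, that of SREBF2. It was found in 1.42% of the protein-coding genes tested that have a promoter there and in 1.13% of all promoters.

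Fatty acid synthesis genes had no member higher in both batches: 9 of 12 were lower in both (median −0.31), and 0 passed. FASN, the fatty acid synthase, went from 23.2 and 8.68 to 12.5 and 4.29 FPKM (limma adjusted p = 0.0882 in the protein-coding run), with differences of −0.84 and −0.87. Of 18 genes for sphingolipids and phosphatidylserine, lipids built on serine, 6 were higher and 2 lower in both batches (median 0.11). KDSR, which reduces the product of the serine-using first step, had differences of 0.90 and 0.96, and SPTLC1, a subunit of the enzyme of that step, had 0.32 and 0.20. SPTLC3, another subunit of that enzyme, was lower, at 0.852 and 30.4 FPKM in complete medium and 0.659 and 9.17 FPKM without serine and glycine (differences of −0.16 and −1.63), and had the lowest log2 fold change of the list. None of the 3 passed.

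**Figure D4:**
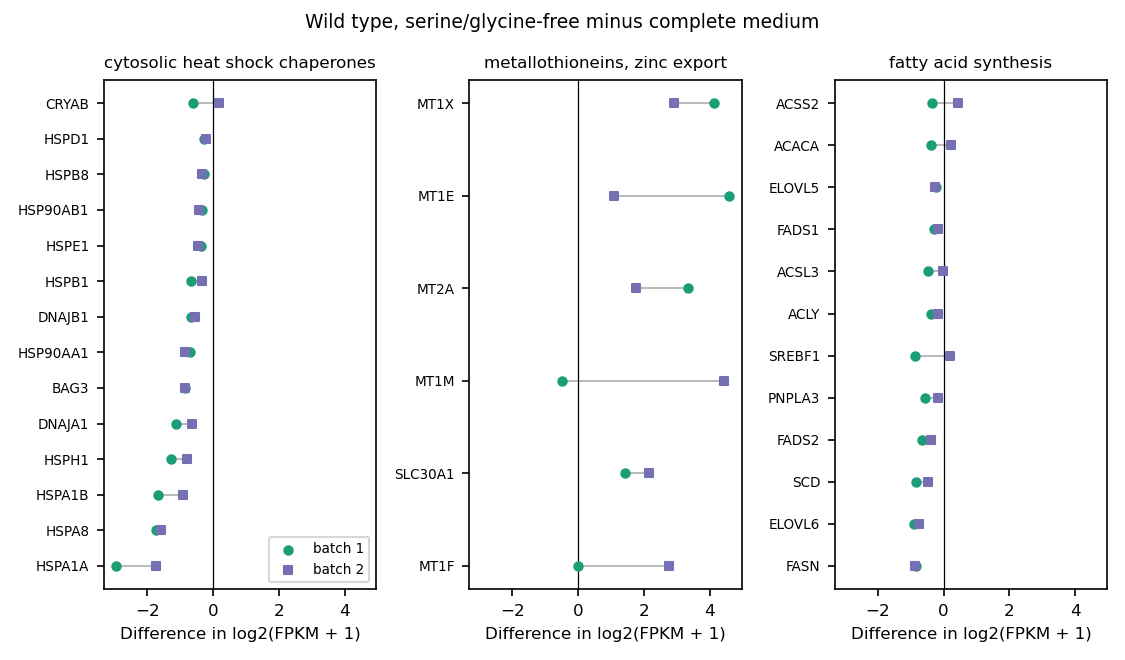
Difference in log2(FPKM + 1), serine/glycine-free minus complete medium, for each tested member of 3 lists. They hold 14 heat shock chaperones (titled cytosolic, with mitochondrial HSPD1 and HSPE1 among them), 6 metallothionein and zinc export genes and 12 fatty acid synthesis genes. Green circles are batch 1 and purple squares batch 2, joined by a grey line; 13 chaperones lie left of 0 in both batches, MT1X, MT1E, MT2A and SLC30A1 lie right of 1 in both, and 9 fatty acid synthesis genes lie left of 0 in both.

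Secreted stress factors and chemokines were mostly higher, with a batch gap. Of 16 tested, 13 were higher in both batches and 1 lower in both (median 1.18), and the median difference was 0.40 in batch 1 and 1.61 in batch 2. IL8, a neutrophil chemokine now named CXCL8, stood at 0.475 and 191 FPKM in complete medium and at 2.89 and 1355 FPKM without serine and glycine, and it rose in the protein-coding run (limma adjusted p = 0.0441). The chemokines CXCL1, CXCL2 and CXCL3 stood at 540, 55.4 and 108 FPKM in the starved batch 2 library, against 191, 9.17 and 26.0 in its control, and at no more than 0.54 FPKM in batch 1. GDF15, a stress hormone, measured 2.16 and 11.2 and then 19.4 and 31.2 FPKM, with the larger difference in batch 1, and STC2, a secreted glycoprotein that ATF4 induces, stood at 25.3 and then 148 FPKM in batch 2 and at no more than 0.354 FPKM in batch 1. GDF15 and STC2 did not pass.

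Glycolysis and hypoxia genes were more often lower than higher. Of 20 glycolytic genes 13 were lower and 3 higher in both batches (median −0.21), and of 14 targets of hypoxia-inducible factor 9 were lower and 0 higher in both (median −0.41). PFKFB4, which sets the level of the glycolytic activator fructose-2,6-bisphosphate, fell in the protein-coding run, from 19.2 and 34.0 to 6.52 and 10.1 FPKM (log2 fold change −1.54 ± 0.21, limma adjusted p = 0.0409). BNIP3, a mitophagy receptor, went from 27.1 and 123 to 14.6 and 68.6 FPKM without passing (limma adjusted p = 0.0644). Transcripts encoded by mitochondrial DNA were lower in both batches for 11 of 13 genes (median −0.38), and 0 passed.

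The medians of the growth and cell cycle lists ran from −0.22 to 0.31, against 0.02 for all protein-coding genes. Ribosome biogenesis genes were higher in both batches for 15 of 20 and lower in both for 0 (median 0.31), and WDR43, a nucleolar assembly factor, rose in the protein-coding run, from 55.0 and 39.3 to 105 and 81.3 FPKM (limma adjusted p = 0.0212). DNA replication genes were lower in both batches for 11 of 21 and higher in both for 4 (median −0.22), and mitosis genes for 11 and 3 of 23 (median −0.08). MKI67, the proliferation marker, had differences of −0.63 and −0.48, and the replication licensing factor CDT1 had −0.55 and −0.99; neither passed. Of 16 p53 target genes 10 were higher and 3 lower in both batches (median 0.30): the growth arrest gene GADD45A went from 17.2 and 18.6 to 33.5 and 41.97 FPKM without passing, and the cell cycle inhibitor CDKN1A had 0.38 and 1.69.

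The remaining 4 lists had medians between −0.03 and 0.37. Autophagy and lysosome genes were higher in both batches for 10 of 18 (median 0.16), immediate early genes for 8 of 16 (median 0.27) and NRF2 target genes for 5 of 14 (median −0.03). MYC, an immediate early factor, had differences of 1.63 and 0.61, and FOS was below 5 FPKM in every library. Targets of TGF-beta and YAP signalling were higher in both batches for 6 of 12 and lower in both for 0 (median 0.37), with medians of 0.03 in batch 1 and 0.88 in batch 2. In these 4 lists 0 genes passed in either run.

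**Figure D5:**
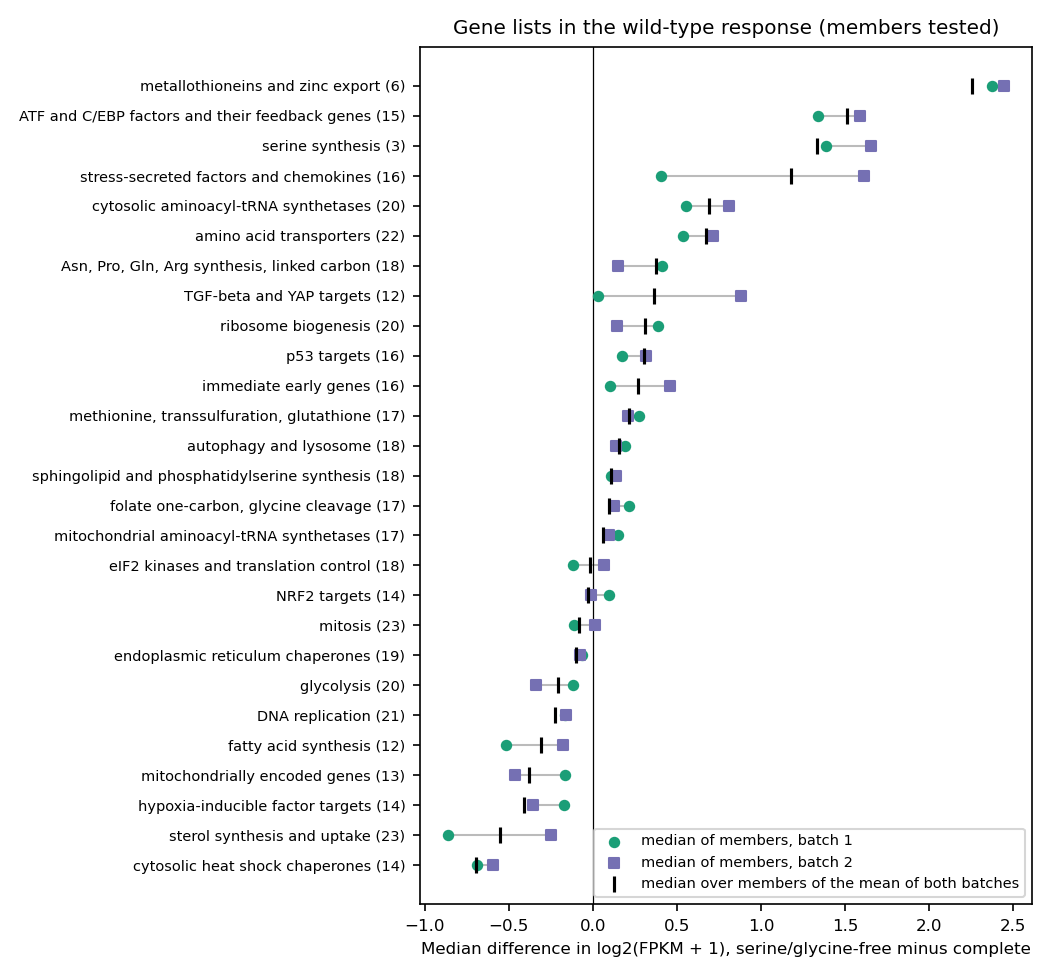
Median difference in log2(FPKM + 1), serine/glycine-free minus complete medium, over the tested members of each of 27 gene lists, with the number of members in parentheses. Green circles are batch 1, purple squares batch 2 and black ticks the median over members of the mean of both batches. The list of metallothioneins and zinc export lies at the top, at 2.26, and the list named cytosolic heat shock chaperones at the bottom, at −0.69.

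Several genes outside the lists moved as strongly as the list members, and they were taken from the size rule and the limma calls. CLDN1, a tight junction protein, went from 0.295 and 1.15 to 4.45 and 6.68 FPKM and rose in the protein-coding run, while CLDN4, another claudin, fell there, from 15.3 and 135 to 6.24 and 55.5 FPKM (limma adjusted p = 0.0277 and 0.0197). KRT34, a hair keratin, went from 2.42 and 0.263 to 9.22 and 5.44 FPKM, SCG5, a secretory granule chaperone, from 1.298 and 1.25 to 6.12 and 8.43 FPKM, and UAP1, an enzyme of the hexosamine pathway, from 38.9 and 82.2 to 109 and 202 FPKM. All 3 rose in that run, with limma adjusted p of 0.0409, 0.0376 and 0.0159. TSC22D3, the glucocorticoid-induced leucine zipper protein, rose there too (log2 fold change 1.48 ± 0.19, limma adjusted p = 0.0409), as did FHL2 and ARHGEF2, a microtubule-linked exchange factor (log2 fold changes 1.16 ± 0.12 and 1.29 ± 0.16, limma adjusted p = 0.0174 and 0.0272). AMIGO2, an adhesion protein, was doubled in both batches but unequally, with differences of 1.00 and 3.66, and did not pass.

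Apart from these, 11 genes that limma called over all genes are noncoding or lack a gene type, 7 higher and 4 lower. In 10 of them both libraries of 1 medium were listed at exactly 0, among them SNORD54, at 2458 and 2023 FPKM in complete medium and listed at 0 without serine and glycine. An exact 0 in such tables can be a failed estimate, so no fold is given. The exception, the small nucleolar RNA SNORA19, fell from 93.3 and 83.8 to 28.1 and 24.9 FPKM (limma adjusted p = 0.0203).

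The libraries labelled ATF3 knockout allow the wild-type changes to be set beside a second pair of experiments from the same batches. Of the 66 doubled genes, 62 were higher in both labelled-knockout pairs and 28 doubled in both, while 2 were lower in both. Of the 13 halved genes, 5 were lower in both and 2 halved in both. Of all protein-coding genes tested, 29.5% were higher in both labelled-knockout pairs, 0.395% doubled in both, 27.2% lower in both and 0.113% halved in both. TRIB3 differed there by 2.87 and 1.79, SARS by 1.54 and 1.21 and MT1X by 4.04 and 4.16. HSPA8 differed by −0.72 and −0.68, smaller than the −1.74 and −1.57 of wild type, but the difference in response did not pass (0.95 ± 0.15, limma adjusted p = 0.76). A limma test of the difference in response called 13 of the genes tested (0.0809%), 0 of them protein-coding (471 genes had an unadjusted p under 0.05), so for no single protein-coding gene was the wild-type response shown to differ from that of the cells labelled knockout.

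The calls rest on 2 pairs of libraries. Leaving out any 1 wild-type library leaves 1 pair, with no other batch to compare. Fitting the wild-type libraries alone kept TRIB3 of the 9 protein-coding genes. The log2 fold changes of the 9 ranged over the alternative runs from 1.22 (PSPH) to 4.11 (MT1X) for the genes that rose. For HSPA8 they ranged from −1.74 to −1.57. Directions held, but most alternatives leave the wild-type estimate as it is or keep 1 of 2 pairs that already agree in sign. The held directions are therefore no separate check.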

How the data were processed

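The authors deposited FPKM values in 1 table per batch, each with 57884 Ensembl genes. TopHat, Cufflinks, Cuffdiff and hg19 are named per the submitters' processing notes, with roles, versions and settings not given in the sources used here; the tables' headers name no unit, and FPKM was inferred from those tools and the values. The tables were normalized separately, so media were compared within a batch. FPKM divides by length, which inflates short RNAs, and 33180 listed genes share a locus with another, so their reads may be split. Ensembl IDs were matched to gene types in GENCODE 29 (96.5% of tested genes).

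Limma 3.58.1 in R 4.3.3 was fitted to log2(FPKM + 1), with a pseudocount of 1 that understates changes of low genes. All 8 libraries entered, with a block for each genotype and batch, a starvation term per genotype, a trended prior and two-sided tests under Benjamini-Hochberg adjustment (threshold 0.05). This leaves 2 residual and 3.23 prior degrees of freedom. The protein-coding run repeats the fit on 12390 genes. Equal replicate numbers mark a shared batch, per the series text, and the block follows from that; deviations of the same-numbered wild-type libraries from their group means correlated at 0.825, which any difference between the 2 tables would give. Groups and lists came from labels and symbols: 442 of 464 list genes were tested.

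The members and lists were chosen with earlier results of these data known. Named genes are ATF3, PHGDH, PSAT1 and PSPH, at most 15 calls in each direction (places left going to genes with a mean of at least 5 FPKM), ranked by the smaller of the 2 differences, and up to 4 members per list plus 2 of opposite sign. Not every gene this names is reported here. Genes named beyond it (CIRBP, RBM3, ATF4, HSPA5, HSPA9, KRT34, SREBF2 and others) were chosen after their values were seen. In simulated data of 16064 genes, changes were given only to protein-coding genes with a mean of at least 5 FPKM. Each such gene was given the same change in both batches. Limma called 28% of those given a true log2 change of 1 (mean estimate 0.97) and 95% of those given 2 (mean estimate 1.98), with 2 unchanged genes called. These rates do not cover lower or noncoding genes, or genes whose change differed between the batches. Alternatives varied the pseudocount, filter, scaling, genes, block, prior and libraries.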

Additional observations from a re-analysis of the deposited data

Results flagged for a closer look

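In 2 readthrough genes, transcripts that join neighbouring genes, every wild-type pair moved up and every labelled-knockout pair moved down. The difference in response, labelled knockout minus wild type, was −1.88 for RPL36A-HNRNPH2 and −1.77 for TMEM110-MUSTN1 on the log2 scale. Both lie below 3 FPKM in all 4 wild-type libraries, and neither difference passed limma's test.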

How the results depend on the processing

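Counts of called genes depended strongly on the processing. The directions of the 9 called protein-coding genes held throughout, which most of the alternatives could not have changed. Over all genes tested limma called 15 higher and 5 lower, of which 8 and 1 are protein-coding, and 13 genes whose response differed between genotype labels. With a pseudocount of 0.1 it called 9 higher (2 protein-coding) and 4 differing; with 5, 8 differing. With no filter it called 0 in each direction (2281 at an unadjusted p under 0.05). A filter on a mean of 5 FPKM gave 3 higher and 1 lower (1 and 0 protein-coding). Scaling to the protein-coding sum gave 7 higher (1 protein-coding). Protein-coding genes alone gave 55 higher, 6 lower and 0 differing; with the wild-type libraries alone as well, an alternative chosen after seeing the data, 91 and 13. A prior without a trend gave 6 and 3 (0 protein-coding in either direction) and 8 differing, a robust prior 26 higher (18 and 2 protein-coding).

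The pairing matters: with no replicate block limma called 6 higher and 3 lower, 0 of them protein-coding, and 2 differing. A replicate block by batch only gave 4 protein-coding genes higher. Wild-type libraries only with the replicate block gave 11 genes higher and 6 lower, of which 1 and 0 are protein-coding. Leaving out 1 library gave 0 to 17 calls in all. Per result these ran from 0 to 11 higher, 0 to 6 lower, 0 to 1 protein-coding higher, 0 protein-coding lower and 0 to 15 differing; without a wild-type library every count was 0, with 910 to 1020 genes at an unadjusted p under 0.05 in limma.

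The size rule's 66 doubled and 13 halved genes became 130 and 55 with a pseudocount of 0.1 and 37 and 3 with 5; 5 were halved under the filter on a mean of 5 FPKM and 21 after scaling to the protein-coding sum. Of the list medians 1 changed sign, that of the mitochondrial synthetases (−0.0082 after scaling to the protein-coding sum, which moved the median of protein-coding genes from 0.02 to −0.04). Calls per gene were kept by 3 (CEBPG) to 10 (TRIB3) of 21 alternatives. Absolute depth is unknown, so no counting interval can be given, and genes changed by less than a log2 fold change of 2 are often missed. Larger changes that differed between the batches also failed to pass over all genes. Among them were CHAC1 (log2 fold change 3.22, limma adjusted p = 0.168) and ASNS (2.47, limma adjusted p = 0.147).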
